A study of Mus musculus with 16 samples.

Results

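The genes described here are 10 regulators and effectors of the myeloid lineage, namely the transcription factor genes Spi1, Cebpa, Cebpb, Cebpe and Irf8, the cytokine gene Csf1 and its receptor gene Csf1r, the Fc receptor gene Fcgr3, and the effector genes Mpo and Lyz2. They form a list of known myeloid genes set by name, and all 10 were among the 37154 genes tested on the arrays. Each gene stands for its brightest probe, matched by the RefSeq accession of the probe's target. The question for each gene was how its transcript level differed between the stages of blood specification, and whether it differed between cells with and without intact Sp1.

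RNA was measured on 16 one-color Agilent arrays, 2 for each of 8 groups. The mouse embryonic stem (ES) cell lines were Sp1+/+ (the E14 line) and Sp1-/-, a single line whose mutated Sp1 locus encodes a shortened protein that lacks the region that contacts DNA, and the labels give the strain as C57BL/6 for both. Flk1+ cells, which are mesodermal cells able to form blood and endothelium, were purified from embryoid bodies with magnetic beads. They were then plated in blast culture for 2 days, and 3 further populations were sorted from the pooled floating and adherent cells: the first stage of hemogenic endothelium (HE1, KIT+ CD41- Tie2+), the second stage (HE2, KIT+ CD41+ Tie2+) and the progenitors (KIT+ CD41+ Tie2-). None of the 10 genes encodes a marker used in the sorts.

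PU.1, the product of Spi1, and the CCAAT/enhancer binding proteins encoded by Cebpa, Cebpb and Cebpe are transcription factors that turn on the genes of granulocytes and macrophages, and IRF8 directs precursors towards monocytes and dendritic cells. Macrophage colony-stimulating factor, the product of Csf1, acts through the receptor tyrosine kinase encoded by Csf1r to keep monocytes and macrophages alive. Sp1 is a broadly expressed zinc finger factor that binds GC-rich promoter elements called GC boxes.

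The 16 arrays had between 67.0% and 77.1% of spots well above background, and no spot was saturated. Values are log2 intensities as the authors deposited them, and the lowest signal that counted as well above background was 5.85 to 6.25 on the different arrays. A gene was called changed at an unadjusted p of 0.01 or less together with a difference of at least 2-fold (1 on the log2 scale) in a limma model over all 16 arrays, and the Benjamini-Hochberg value over all genes tested is given as the adjusted p. The design text and a figure legend of the study differ on whether the paired arrays are biological or technical replicates, so an SD or a p may cover only technical spread. All 8 Sp1+/+ arrays sat on 1 slide and all 8 Sp1-/- arrays on the other, so that effects of slide cannot be told apart from those of genotype. The Sp1 probe itself was 2.28 to 3.28 lower on the log2 scale in the Sp1-/- groups, and where it lies relative to the mutated part of the locus is not known here. Among the genes of the 4 sort markers, Kit alone was called lower in the Sp1-/- cells, and only in progenitors (-1.23, adjusted p = 0.0367). In such sorted bulk samples, fewer cells of a type and less RNA per cell cannot be told apart.

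Since Sp1 binds GC boxes, promoter sequences of 5 members are shown, chosen to span many, few and no GC boxes. RefSeq entries (mouse assembly GRCm38.p6) were found for 7 of the 10 genes, and each run below holds the 250 bases before the most upstream listed start, written 5′ to 3′ on the gene's strand. Capitals mark the GC box core GGGCGG and the core GAGGAA of the sites that PU.1 binds, on either strand. Cebpb (chr2:167688665-167688914, plus strand) is shown as the member with the most GC box cores, 5, of which 2 overlap. Csf1 (chr3:107760470-107760719, minus strand) and Irf8 (chr8:120736108-120736357, plus strand), which were lower and higher in Sp1-/- progenitors, hold 2 each. Fcgr3 (chr1:171059404-171059653, minus strand) and Mpo (chr11:87793534-87793783, plus strand) hold none, but 1 and 2 GAGGAA cores. Of these, Fcgr3 was higher in Sp1-/- HE2 and progenitors, whereas neither Mpo nor Cebpb was called between the genotypes in any population.
Cebpb: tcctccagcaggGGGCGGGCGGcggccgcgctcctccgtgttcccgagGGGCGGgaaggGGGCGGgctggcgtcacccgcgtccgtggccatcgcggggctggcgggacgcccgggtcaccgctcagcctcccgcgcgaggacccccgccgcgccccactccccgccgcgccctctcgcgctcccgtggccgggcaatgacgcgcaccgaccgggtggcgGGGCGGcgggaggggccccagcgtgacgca
Csf1: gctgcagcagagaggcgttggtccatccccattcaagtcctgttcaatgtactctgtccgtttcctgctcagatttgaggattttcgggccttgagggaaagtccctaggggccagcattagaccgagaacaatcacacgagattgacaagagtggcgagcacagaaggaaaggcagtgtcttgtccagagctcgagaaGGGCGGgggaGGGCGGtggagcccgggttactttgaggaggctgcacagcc
Irf8: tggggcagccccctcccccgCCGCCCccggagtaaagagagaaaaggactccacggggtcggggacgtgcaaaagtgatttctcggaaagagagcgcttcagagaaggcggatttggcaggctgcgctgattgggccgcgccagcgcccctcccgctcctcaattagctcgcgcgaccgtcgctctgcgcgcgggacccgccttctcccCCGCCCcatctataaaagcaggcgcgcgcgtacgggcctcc
Fcgr3: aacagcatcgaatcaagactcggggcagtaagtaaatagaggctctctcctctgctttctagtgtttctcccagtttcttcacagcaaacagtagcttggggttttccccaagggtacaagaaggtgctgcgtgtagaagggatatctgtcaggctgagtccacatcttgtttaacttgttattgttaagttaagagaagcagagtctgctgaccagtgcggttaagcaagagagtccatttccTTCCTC
Mpo: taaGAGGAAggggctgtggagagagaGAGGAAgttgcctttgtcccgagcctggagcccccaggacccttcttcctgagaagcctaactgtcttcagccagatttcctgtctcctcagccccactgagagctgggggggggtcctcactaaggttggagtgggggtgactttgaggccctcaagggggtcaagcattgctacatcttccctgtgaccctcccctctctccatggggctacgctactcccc
Over all 32851 promoters of the same length, 32.7% held GGGCGG and 23.3% held GAGGAA on either strand. Also counted was the TTGCNNAA core of CCAAT/enhancer binding proteins, which occurred once in the Fcgr3 promoter (not in capitals) and in 9.56% of all promoters. The GC content of the runs was 81.6% for Cebpb, 67.2% for Irf8, 59.2% for Mpo, 56.4% for Csf1 and 46% for Fcgr3. The promoters of Cebpa and Lyz2 held none of the 3 motifs. These matches describe letters in a window and carry no information on binding.

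Spi1 and Cebpb rose at the step from HE1 to HE2, whereas for Cebpa, Cebpe and Irf8 in Sp1+/+ cells the step from HE2 to progenitors was the one that passed the call rule. In Sp1+/+ cells, Spi1 read 6.34 and 5.99 (replicates 1 and 2) in Flk1+ cells, 6.17 and 6.02 for HE1, 8.09 and 7.65 for HE2 and 9.14 and 9.07 for progenitors. In Sp1-/- cells the values were 6.21 and 6.33, 6.07 and 6.12, 8.67 and 8.93, and 8.96 and 9.08. None of the 4 HE1 arrays was well above background, and all HE2 arrays lay above them. The rise from HE1 to HE2 is therefore given as a bound, of at least 3.16-fold in Sp1+/+ and at least 6.52-fold in Sp1-/-. The bound was taken against the lowest signal well above background on each array, or the gene's own signal where that was higher. The differences as measured were 1.775 in Sp1+/+ (adjusted p = 0.000107) and 2.705 in Sp1-/- (adjusted p = 2.28e-06). From HE2 to progenitors Spi1 rose by a further 1.24 in Sp1+/+ (SE 0.157, adjusted p = 0.0017), whereas the Sp1-/- difference was 0.22 (95% interval -0.13 to 0.57, adjusted p = 0.415).

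Cebpb, an activator of cytokine and acute phase genes, read between 9.18 and 10.56 on all 8 arrays of Flk1+ cells and HE1 in both genotypes. In HE2 it read 12.76 and 12.40 in Sp1+/+ and 13.12 and 13.46 in Sp1-/-. Progenitors read 13.44 and 13.28 against 13.09 and 13.49. The HE2 and progenitor arrays thus all lay above every Flk1+ and HE1 array. The rise from HE1 to HE2 was 2.995 in Sp1+/+ (adjusted p = 9.43e-05) and 3.32 in Sp1-/- (adjusted p = 1.78e-05). The next step, to progenitors, was not called in either genotype.

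Cebpa, which drives the first commitment to the myeloid lineage, read 6.49 to 7.55 on all 12 arrays before the progenitor stage. In progenitors it read 8.23 and 8.14 in Sp1+/+ and 8.50 and 8.60 in Sp1-/-, above every earlier array. The rise from HE2 was 1.18 in Sp1+/+ (adjusted p = 0.000179) and 1.12 in Sp1-/- (adjusted p = 8.5e-05). Cebpe, a factor of late granulocyte maturation, read 6.19 to 6.91 on those 12 arrays. Its progenitor values were 8.51 and 8.61 in Sp1+/+ but 7.40 and 7.16 in Sp1-/-. The step from HE2 was accordingly 1.86 in Sp1+/+ (SE 0.142, adjusted p = 6.46e-05) and 0.67 in Sp1-/- (adjusted p = 0.00942), the latter under 2-fold and not called.

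Irf8 read 7.23 and 7.07 in Flk1+ cells, 7.81 and 8.13 for HE1, 7.86 and 8.12 for HE2 and 9.23 and 10.19 for progenitors of Sp1+/+. The Sp1-/- values were 6.51 and 6.66, 7.96 and 7.57, 8.88 and 8.94, and 10.98 and 10.92. In Sp1+/+ cells HE1 lay above Flk1+ cells without overlap by 0.82 (adjusted p = 0.0345), under 2-fold and not called. HE1 and HE2 overlapped there, and the last step was called (1.72, adjusted p = 0.00431). In Sp1-/- cells Irf8 rose at all 3 steps, by 1.18 (adjusted p = 0.00429), 1.15 (adjusted p = 0.00856) and 2.04 (adjusted p = 0.000348).

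**Figure D1:**
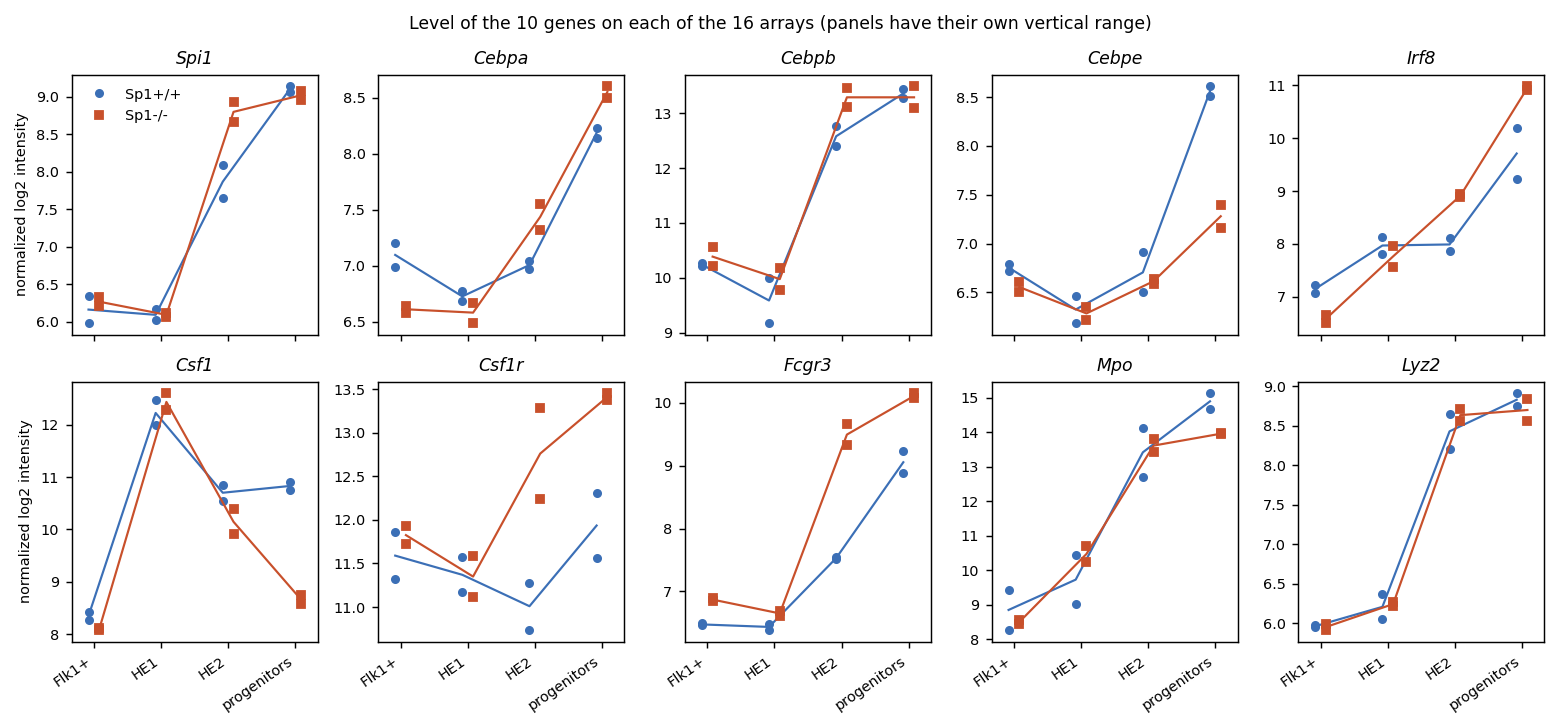
Deposited log2 intensity (y axis, with its own range in each panel) of each of the 10 genes in Flk1+ cells, HE1, HE2 and progenitors (x axis), with a point for each array and a line through the mean of 2 arrays for Sp1+/+ and for Sp1-/-. Spi1, Cebpb, Mpo and Lyz2 step up between HE1 and HE2 in both genotypes, and the Csf1 lines part in progenitors. The Sp1-/- arrays of Fcgr3 lie above the Sp1+/+ arrays in every population, with wider gaps in HE2 and progenitors.

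The ligand gene Csf1 had a different course from the other 9 genes. In Sp1+/+ it read 8.27 and 8.43 in Flk1+ cells, 12.47 and 11.99 for HE1, 10.85 and 10.55 for HE2 and 10.90 and 10.76 for progenitors. In Sp1-/- it read 8.11 and 8.08, 12.60 and 12.28, 10.39 and 9.91, and 8.76 and 8.58. HE1 was the highest population in both genotypes, with no overlap with any other. Csf1 rose by 3.88 from Flk1+ cells to HE1 in Sp1+/+ (adjusted p = 2.13e-07) and by 4.34 in Sp1-/- (adjusted p = 1.09e-07). It then fell by 1.53 to HE2 in Sp1+/+ (adjusted p = 0.000828) and by 2.29 in Sp1-/- (adjusted p = 2.8e-05). Between HE2 and progenitors Sp1+/+ cells differed by 0.13 (95% interval -0.30 to 0.56), while Csf1 in Sp1-/- cells fell by 1.48 (adjusted p = 0.000519).

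The receptor gene Csf1r showed no called step in Sp1+/+ cells, where its brightest probe read 10.74 to 12.31 over all 8 arrays. Its Sp1-/- values were 11.72 and 11.93 in Flk1+ cells, 11.11 and 11.59 for HE1, 12.24 and 13.28 for HE2 and 13.45 and 13.37 for progenitors. The 2 later populations lay above the 2 earlier ones, and the step from HE1 to HE2 was called (1.41, adjusted p = 0.0173). Fcgr3, a low-affinity receptor for immunoglobulin G on phagocytes, read 6.39 to 6.89 on the 8 arrays of Flk1+ cells and HE1. In HE2 it read 7.54 and 7.52 in Sp1+/+ and 9.33 and 9.66 in Sp1-/-, and in progenitors 8.88 and 9.23 against 10.07 and 10.15. Fcgr3 therefore rose at HE2 in both genotypes, by 1.095 in Sp1+/+ (adjusted p = 0.000518) and 2.85 in Sp1-/- (adjusted p = 7.62e-07). From HE2 to progenitors it rose by 1.53 in Sp1+/+ (adjusted p = 0.000113), and the Sp1-/- difference of 0.62 (adjusted p = 0.00775) was under 2-fold.

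The effector genes followed the course of Spi1 and Cebpb. Mpo, which encodes the peroxidase of azurophil granules, read 10.44 and 9.01 in HE1 and 14.14 and 12.70 in HE2 of Sp1+/+, and 10.23 and 10.71 against 13.42 and 13.81 in Sp1-/-. The spread between the Sp1+/+ replicates was over 1 log2 unit in both of these populations and in Flk1+ cells (8.27 and 9.42), yet HE2 did not overlap HE1. The rise was 3.70 in Sp1+/+ (adjusted p = 0.00153) and 3.15 in Sp1-/- (adjusted p = 0.00183). Mpo also rose from Flk1+ cells to HE1 in Sp1-/- by 1.98 (adjusted p = 0.0157), and the corresponding Sp1+/+ difference was 0.88 (adjusted p = 0.303). Lyz2, which encodes the lysozyme of macrophages and granulocytes, read 5.92 to 6.37 on the 8 arrays of Flk1+ cells and HE1 and was not well above background on any Flk1+ array. In HE2 it read 8.65 and 8.21 in Sp1+/+ and 8.56 and 8.71 in Sp1-/-, a rise over HE1 of 2.22 (adjusted p = 2.97e-05) and 2.39 (adjusted p = 5.21e-06). Progenitors read 8.75 and 8.91 against 8.56 and 8.84, and the last step was not called in either genotype.

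Counted over the list, 1 of 10 genes was called from Flk1+ cells to HE1 in Sp1+/+, a higher one, where 8.56% of all genes tested were called and 4.66% were called higher. At the step from HE1 to HE2 the count was 6 of 10 beside 3.32% of all genes, with 5 higher (1.08% of all genes) and 1 lower (2.24%). Between HE2 and progenitors it was 5 of 10, all higher, beside 1.75% of all genes called and 1.02% called higher. In Sp1-/- cells 3 of 10 were called at the first step, all higher (9.53% of all genes, 4.63% higher). At the second step 8 of 10 were called (5.62% of all genes), 7 higher (2.09%) and 1 lower (3.53%). At the last step 3 of 10 were called (5.01% of all genes), 2 higher (2.34%) and 1 lower (2.68%). Successive steps share the population between them, so these counts are not independent of each other. With the offset of 16 that the methods give, Irf8 was also called from Flk1+ cells to HE1 in Sp1+/+ (1.00) and Cebpa from HE1 to HE2 in Sp1-/- (1.16). The first-step calls in Sp1-/- were 2 without any single array, since Mpo was lost without replicate 1 or 2 of the Flk1+ cells or replicate 2 of HE1, and Irf8 without replicate 1 of HE1. At the second step in Sp1-/- the Csf1r call was lost without replicate 1 of HE1 or replicate 2 of HE2, and the Irf8 call without replicate 2 of HE1.

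Sp1-/- and Sp1+/+ cells did not differ in any of the 10 genes by the call rule in Flk1+ cells or HE1. In these populations 1.66% and 2.11% of all genes were called. At an unadjusted p under 0.05 there were 3 members in Flk1+ cells and 0 in HE1. The share of all genes at that threshold was not counted. At an adjusted p of 0.05 or less there were 1 and 0, beside 2592 and 3653 of all 37154 genes. In Flk1+ cells Cebpa read 6.99 and 7.20 in Sp1+/+ and 6.58 and 6.64 in Sp1-/-, a difference of -0.49 (adjusted p = 0.0224) that was under 2-fold. Fcgr3 was already higher in Sp1-/- without overlap, by 0.395 in Flk1+ cells (adjusted p = 0.0951) and 0.215 in HE1 (adjusted p = 0.344). Both differences were under 2-fold and came from dim signals. The groups did not overlap for 5 members in Flk1+ cells and for 2 in HE1, which compares with 51.6% and 45% of all genes.

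In HE2, Fcgr3 and Csf1r were higher in Sp1-/- cells, 2 of 10 members where 1.96% of all genes were called and 0.778% were called higher. Fcgr3 was 3.90-fold higher (1.97 on the log2 scale, SE 0.127, adjusted p = 7.86e-06), and each Sp1-/- array lay more than 1 log2 unit above both Sp1+/+ arrays. Csf1r was 3.36-fold higher (1.75, SE 0.356, 95% interval 0.97 to 2.53, adjusted p = 0.0149), although its Sp1-/- arrays differed from each other by over 1 log2 unit. Spi1 differed by 0.93 (adjusted p = 0.00536) and Irf8 by 0.92 (adjusted p = 0.0615), both short of 2-fold. These were called with the offset of 16, at 1.05 and 1.03. The remaining HE2 differences were 0.43 for Cebpa (adjusted p = 0.0437), 0.71 for Cebpb (adjusted p = 0.166), -0.56 for Csf1 (adjusted p = 0.145), 0.21 for Lyz2, 0.20 for Mpo and -0.09 for Cebpe. The groups did not overlap for 7 of the 10 members, beside 45.4% of all genes.

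In progenitors 5 of 10 members were called, where 4.12% of all genes were called (1.51% higher and 2.61% lower). Csf1 was 4.48-fold lower in Sp1-/- cells (-2.16, SE 0.194, adjusted p = 4.57e-05) and Cebpe 2.43-fold lower (-1.28, SE 0.142, adjusted p = 0.000182). Irf8 was 2.36-fold higher (1.24, SE 0.253, adjusted p = 0.00776), Csf1r 2.78-fold (1.48, SE 0.356, adjusted p = 0.0188) and Fcgr3 2.08-fold (1.06, SE 0.127, adjusted p = 0.000302). For each of these 5 genes the Sp1-/- arrays did not overlap the Sp1+/+ arrays, which held for 7 of the 10 members and 62.5% of all genes.

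The 3 higher calls in progenitors rest on replicate 1 of the Sp1+/+ progenitors. Without that array Irf8 differed by 0.76 and Fcgr3 by 0.88, both under 2-fold, and Csf1r by 1.1 with a p above the threshold, so that the count fell from 5 to 2. Leaving out replicate 1 of the Sp1-/- progenitors put the p of Csf1r just above the threshold too, at a difference of 1.44. Cebpe and Csf1 were called without any single progenitor array, at -1.40 to -1.16 and at -2.25 to -2.08.

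The other 5 members were not called in progenitors. Spi1 differed by -0.09 (95% interval -0.43 to 0.26), Lyz2 by -0.13 (-0.47 to 0.21) and Cebpb by -0.07 (-0.64 to 0.50), intervals that lie inside 2-fold in either direction. Cebpa differed by 0.37 (adjusted p = 0.0496). Mpo read 15.13 and 14.67 in Sp1+/+ and 13.97 and 13.95 in Sp1-/-. These groups did not overlap, but with the spread of Mpo in the other populations the difference of -0.94 had an interval of -2.11 to 0.23 (adjusted p = 0.306). Over the 4 populations 5 of the 10 members were called at least once, beside 6.76% of all genes.

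**Figure D2:**
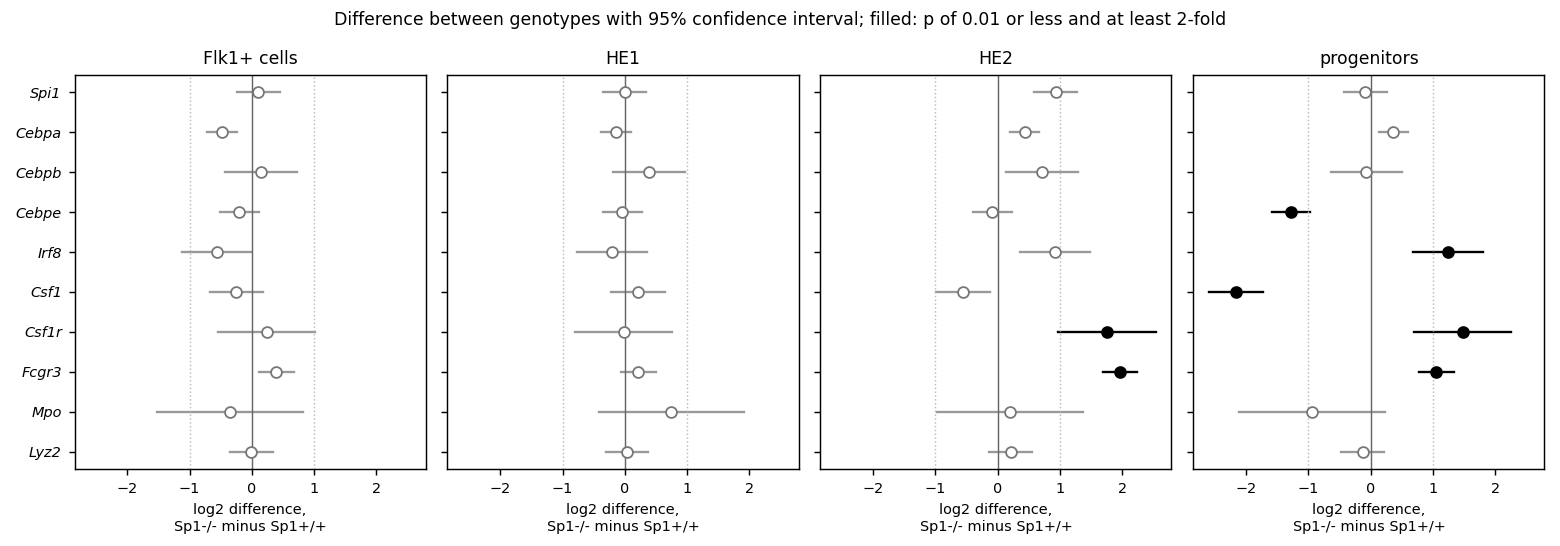
Sp1-/- minus Sp1+/+ as a log2 difference of deposited values (x axis) for each of the 10 genes (rows), with 1 panel for each population and bars for the 95% confidence interval from the limma model. Filled points mark a p of 0.01 or less with at least 2-fold (dotted lines): Fcgr3 and Csf1r in HE2 and progenitors, and Irf8, Cebpe and Csf1 in progenitors.

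Whether the difference between the genotypes itself changed from stage to stage was tested as an interaction in the same model. From Flk1+ cells to HE1 it changed for 0 of 10 members by limma, where 1.6% of all genes were called. From HE1 to HE2 it changed for 3, all upward (0.743% of all genes, 0.431% upward): Fcgr3 by 1.75 (adjusted p = 0.00721), Csf1r by 1.77 (adjusted p = 0.357) and Irf8 by 1.13 (adjusted p = 0.435). From HE2 to progenitors it changed for 3, all downward (1.6% of all genes, 0.915% downward): Csf1 by -1.61 (adjusted p = 0.0281), Cebpe by -1.19 (adjusted p = 0.0262) and Spi1 by -1.02 (adjusted p = 0.073). For Spi1 this joins a difference of 0.93 in HE2 to one of -0.09 in progenitors. From Flk1+ cells to progenitors it changed for Irf8 upward and for Cebpe and Csf1 downward (3.83% of all genes, 1.45% upward and 2.38% downward). The calls of Fcgr3 and Csf1, and that of Irf8 between Flk1+ cells and progenitors, were kept without any single array, whereas each of the other calls was lost without at least 1 array. Without replicate 2 of the Sp1+/+ HE2 the counts at both of these steps fell from 3 to 1, and without replicate 2 of the Sp1-/- HE2 the count between HE1 and HE2 also fell to 1.

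Csf1 and Csf1r were the members with several probes, 3 each. For Csf1 the other probes, which target another RefSeq transcript, were also called lower in Sp1-/- progenitors, by -1.40 and -1.54. HE1 was the highest population on these probes too, in both genotypes. Csf1 values of the brightest probe are means of 10 spots, less 1 outlier spot on an array of Sp1-/- Flk1+ cells. For Csf1r the 3 probes share a target transcript but disagreed. The brightest probe differed by 1.75 in HE2 and 1.48 in progenitors, the dimmest by 1.00 and 1.31 (both called), and the intermediate one by 0.35 and 0.58 (neither called). The dimmest probe also rose from HE2 to progenitors in both genotypes, by 1.16 in Sp1+/+ and 1.47 in Sp1-/-, where the brightest was not called (0.93 and 0.65). The intermediate probe read 9.01 to 9.60 as group means in all 8 groups, nearly flat. All 3 probes read higher in Sp1-/- than in Sp1+/+ in HE2 and in progenitors, but the size of the Csf1r difference depends on the probe. The intermediate probe also read higher in Sp1-/- Flk1+ cells, by 0.50 (not called), so its difference was not limited to the later populations.

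**Figure D3:**
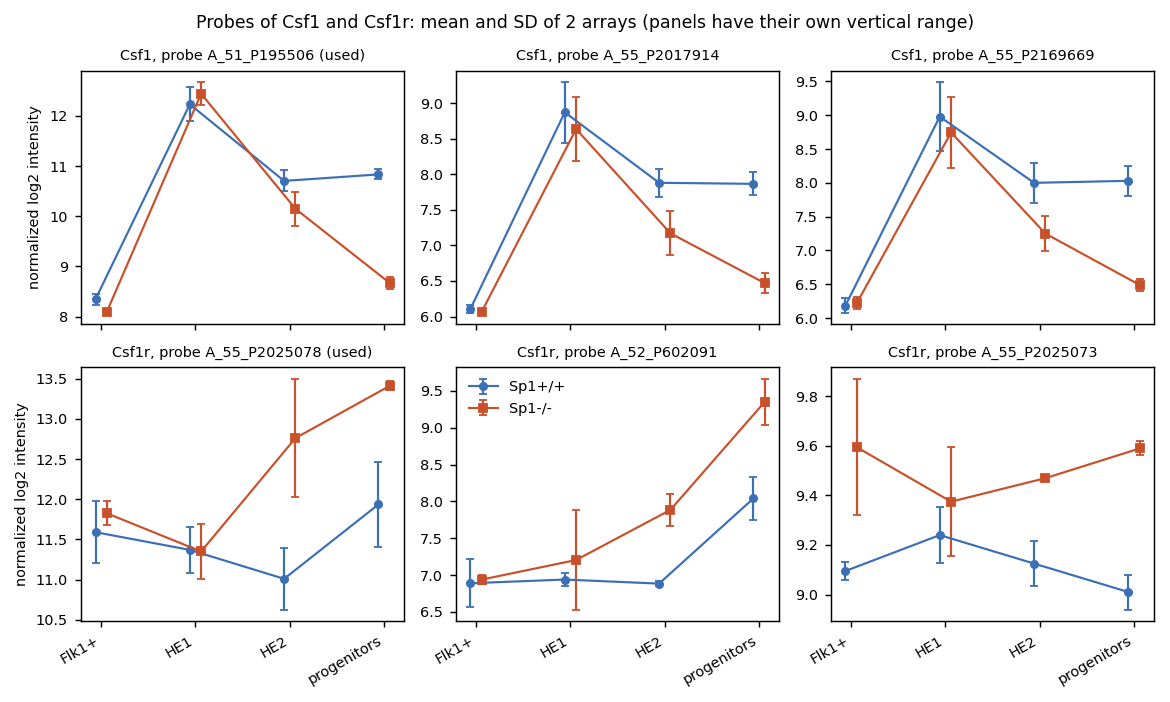
Deposited log2 intensity (y axis, with its own range in each panel) over the 4 populations (x axis) for the 3 probes of Csf1 and the 3 probes of Csf1r, as the mean of 2 arrays with bars for the SD, for Sp1+/+ and Sp1-/-. Each Csf1 probe lies lower in Sp1-/- progenitors, and 1 Csf1r probe, the intermediate one, stays between 9.01 and 9.60 in every group.

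Further genes of the myeloid programme were counted in 4 lists. Of all 37154 genes tested, 289 were called higher and 440 lower in Sp1-/- HE2. In progenitors 561 were called higher and 969 lower. Of 21 other myeloid transcription factors, 3 were higher and 3 lower in Sp1-/- progenitors (median 0.02, as over all genes). The higher ones were Ddit3 (2.10), Atf4 (1.26) and Irf5 (1.23), of which the first pair are factors of the integrated stress response and Irf5 a factor of macrophage activation. The lower ones were Gfi1 (-1.94), a repressor needed for neutrophil development, Trib2 (-1.43), a regulator of CCAAT/enhancer binding protein stability, and Cebpd (-1.31), a relative of Cebpb and Cebpe. In HE2 the count of this list was 2 higher (Atf4 and Ddit3) and 2 lower (Batf3 and Trib2). In HE1 it was 2 higher (Ddit3 and Runx1) and 0 lower, and in Flk1+ cells 3 higher and 1 lower. Ddit3 was thus called higher in every population, and Atf4 in all but HE1.

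Of 23 genes of myeloid receptors and signalling, 4 were higher and 0 lower in Sp1-/- HE2, and 3 higher and 0 lower in progenitors, with medians of 0.31 and 0.20. Fcer1g, the signalling chain shared by Fc receptors such as that of Fcgr3, was called higher in both, by 2.51 and 1.80. The adaptor gene Tyrobp (1.86) and the receptor chain genes Csf2rb (1.26) and Csf2rb2 (1.37) were called in HE2, and the Fc receptor genes Fcgr1 (1.65) and Fcgr4 (1.34) in progenitors. Csf2rb and Csf2rb2 were also called higher in HE1, where Ptpn6 and Syk were called lower. Of 15 granule genes, 1 was higher in HE2 (Ms4a3, 1.00) and 2 in progenitors, namely Prtn3 (1.62), which encodes proteinase 3, and S100a8 (1.29), which was above background on 1 of the 2 Sp1+/+ arrays. The medians of this list were 0.15 and 0.12.

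Of these 4 lists, the macrophage markers had the largest median difference in HE2 and in progenitors. This list also holds genes of leukocytes in general, such as Ptprc (CD45), Coro1a, Laptm5, Cd52 and Cd53. Of 25 such genes measured, 11 were higher and 1 lower in Sp1-/- HE2 (median 0.92, against 0.02 over all genes). In progenitors 7 were higher and 1 lower (median 0.76), with Ctss (2.76), Aif1 (2.41), Cx3cr1 (2.40), Ncf4 (2.16) and Ptprc (1.28) called in both populations. Cyba, a subunit of the phagocyte oxidase, was the lower one in each, and it was called lower in all 4 populations. Laptm5 was called higher in HE1 as well as in HE2, and Lgals3 was called lower in Flk1+ cells. Among the list genes called in neither HE2 nor progenitors were Itgam, Mrc1, Msr1 and C1qa. The mean of the list was 8.17 to 8.22 in Sp1+/+ HE2 against 8.94 to 8.96 in Sp1-/- HE2, and 9.08 to 9.36 against 9.92 to 10.04 in progenitors. How far these genes and the higher Fcgr3, Csf1r and Irf8 share a source was not tested.

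**Figure D4:**
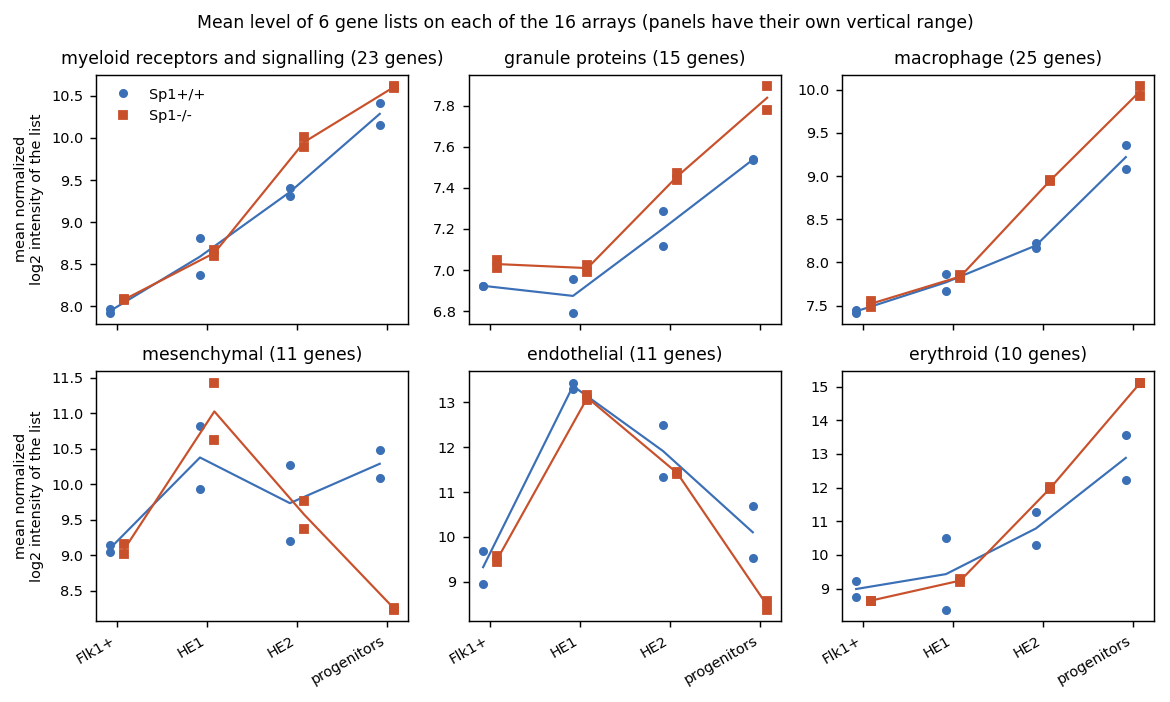
Mean deposited log2 intensity over the genes of 6 lists (y axis, with its own range in each panel) in the 4 populations (x axis), with a point for each array and a line through the mean of the 2 arrays of each genotype. The macrophage mean of Sp1-/- lies above that of Sp1+/+ in HE2 and progenitors, and in progenitors the mesenchymal mean of Sp1-/- (8.23 to 8.26) lies below that of Sp1+/+ (10.09 to 10.49).

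Markers of other cell types also moved in Sp1-/- progenitors, where 1.51% of all genes were called higher and 2.61% lower. In HE2 0.778% of all genes were called higher. Of 10 erythroid genes 6 were higher (median 2.07), with list means of 12.21 to 13.55 in Sp1+/+ and 15.10 to 15.11 in Sp1-/-, and of 9 megakaryocyte genes 6 were higher (median 1.17). Of 11 mesenchymal genes 6 were lower, led by Col1a1 (-4.70), Acta2 (-3.71) and Tagln (-3.67), with list means of 10.09 to 10.49 against 8.23 to 8.26. Of 11 endothelial genes 5 were lower (median -1.76). In HE2 the erythroid list had a median difference of 1.35 with Slc4a1 called (1.29), and its means did not overlap, at 10.30 to 11.28 in Sp1+/+ against 11.964 to 12.003 in Sp1-/-. The megakaryocyte list had a median of 0.37 there with Gp5 called (1.25), and means of 9.18 to 9.40 against 9.63 to 9.78. The mesenchymal means of HE2 overlapped, at 9.20 to 10.27 against 9.37 to 9.77, as did the endothelial ones, at 11.34 to 12.50 against 11.40 to 11.44. The part of these shifts in the higher Fcgr3 and Csf1r of HE2, the lower Csf1 of progenitors and the other differences was not tested.

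Finally, the genes whose levels ran most like each member over the 16 arrays were listed by Pearson's r, as a description. Arrays of a group share their population and genotype, so r mainly reflects the group means. Spi1 ran closest to Il18rap (r = 0.993), Cebpb also to Il18rap (0.983), Cebpa to Samd14 (0.978), Cebpe to Wfdc21 (0.948) and Irf8 to Gpx1 (0.982). Fcgr3 ran closest to Wdfy4 (0.991), Mpo to Dapp1 (0.986), Lyz2 to F13a1 (0.994) and Csf1r to H2-T24 (0.917). Csf1 ran closest to Cryab (0.982), then to Megf10 (0.979) and Tagln (0.975), the last a gene of the mesenchymal list. Among the members themselves Spi1 and Cebpb had r = 0.981, Spi1 and Lyz2 0.973, and Mpo and Lyz2 0.973. Csf1 stood apart, with r of -0.43 to 0.16 with the other 9.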

How the data were processed

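RNA of 16 samples (2 per group) was hybridized to one-color Agilent arrays. Per the labels and file headers, scans were read with Agilent Feature Extraction (10.7.1.1 and 10.7.3.1 are named), and the scanner tables hold spot intensities. The normalized log2 values were deposited by the authors, whose methods give quantile normalization after normexp (offset 16) in limma. The deposited values matched an offset of 50 to within 0.0258, whereas with 16 the difference reached 1.63. A larger offset narrows differences of dim genes.

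Here the deposited log2 values were used. Outlier spots (95 to 182 per array) were set to missing, spots of a probe were averaged, and probes reaching log2 6 on at least 1 array were kept (99.8%). Of 37932 target names, 20869 matched a gene symbol. The brightest probe stood for each of 37154 genes. A limma model (R 4.3.3, limma 3.58.1) with 8 groups and 8 residual degrees of freedom gave the 4 genotype differences, the 6 steps between successive populations and 4 interactions. Genes named beside the 10 members were mainly those called in HE2 or progenitors within the gene lists, with values for the largest. Some called in Flk1+ cells or HE1 were also named. The members and lists were chosen with earlier results of these data known. Code was tested on simulated data. The alternatives tried are described after the report. The number of arrays limits the precision. A group dim on every array is given as a bound against the lowest signal well above background on each array, or its own signal where higher.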

Additional observations from a re-analysis of the deposited data

Results flagged for a closer look

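For 5 of the 10 genes the difference between Sp1-/- and Sp1+/+ cells was not the same in every population by an interaction term at an adjusted p of 0.05 or less. For Fcgr3 the difference grew by 1.75 on the log2 scale from HE1 to HE2 (adjusted p = 0.00721) and shrank again by 0.91 from HE2 to progenitors (-0.91, adjusted p = 0.0481), the latter under 2-fold. For Cebpe it changed by -1.19 from HE2 to progenitors (adjusted p = 0.0262) and by -1.08 from Flk1+ cells to progenitors (adjusted p = 0.0118). For Csf1 the corresponding changes were -1.61 (adjusted p = 0.0281) and -1.91 (adjusted p = 0.00327). The Cebpe terms set progenitors against populations where its signal was dim, so a difference there could be hidden. The same limit holds for the Fcgr3 term from HE1 to HE2, since Fcgr3 was dim in HE1. With the processed signal scaled to the 75th percentile, Fcgr3 was called higher in HE1 already (1.23). From Flk1+ cells to progenitors the difference of Irf8 moved by 1.81 (adjusted p = 0.0159) and that of Cebpa by 0.85 (adjusted p = 0.0106), each from a negative difference in Flk1+ cells to a positive one in progenitors.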

How the results depend on the processing

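Among the genotype differences, the called direction of no member turned under any alternative. For the steps between populations, the alternatives were compared mainly by counts of calls and not by direction. The count of members called moved by over 1.5 times in the following cases. With the methods' offset of 16 it was 4 in HE2 (main 2), beside 3.25% of all genes. From Flk1+ cells to HE1 in Sp1+/+ it was 2 (main 1), beside 13.1%. Smaller moves at that offset were from 8 to 9 at HE1 to HE2 in Sp1-/- (8.8% of all genes) and from 3 to 4 for 3 of the interactions (Spi1, Fcgr3 and Cebpa gained, beside 1.28%, 2.65% and 6.02% of all genes). With no background correction it was 4 in HE2, beside 2.87% of all genes. The processed signal scaled to the 75th percentile gave 3 in Flk1+ cells and 1 in HE1 (main 0 in each, 4.06% and 6.1% of all genes), 4 in HE2 (5.44%), 3 and 5 from Flk1+ cells to HE1 in Sp1+/+ and Sp1-/- (main 1 and 3, 16.8% and 18% of all genes), and 1 for the change of the genotype difference from Flk1+ cells to HE1 (main 0, 2.98% of all genes). It put the median of all genes in HE1 at 0.13 (main 0.01), raised the calls over all genes from 615 to 1050 in Flk1+ cells and from 1530 to 2500 in progenitors, in HE1 from 784 (362 higher) to 1579 (975 higher) and in HE2 from 729 (289 higher) to 1408 (739 higher), from HE2 to progenitors from 651 to 1053 in Sp1+/+ and from 1863 to 3002 in Sp1-/-, and for the interaction at that step from 595 to 900. It also called Cebpa (-1.03) and Irf8 (-1.10) lower and Fcgr3 (1.22) higher in Flk1+ cells, Fcgr3 higher in HE1 (1.23), and Cebpa (1.06) and Irf8 (1.27) higher in HE2. An unmoderated equal-variance two-sample test per gene, with 2 arrays against 2, gave 1 in HE2, 1 in progenitors, 1 at each of the later steps in Sp1+/+, and 1, 5 and 1 at the steps in Sp1-/-. At a Benjamini-Hochberg adjusted p of 0.01 or less with the fold, this test gave 0 in all comparisons it was run for. It could not be run for the interactions. An adjusted p of 0.05 left 1 from HE1 to HE2 for the interaction, with or without the fold. Without the fold it gave 1 in Flk1+ cells, 4 in HE2, 4 from Flk1+ cells to HE1 in Sp1+/+ and 5 from HE2 to progenitors in Sp1-/-. In that order 2592, 2109, 9205 and 5701 of all 37154 genes passed without the fold, and 38 for the interaction. Leaving out each array in turn gave counts of 2 to 5 in progenitors, 2 to 3 in HE2, 1 to 2 from Flk1+ cells to HE1 in Sp1+/+ (2 in every case in Sp1-/-), 6 in every case and 7 to 8 from HE1 to HE2 in Sp1+/+ and Sp1-/-, 5 to 6 and 3 to 4 at the last step, 2 to 3 for the interaction from Flk1+ cells to progenitors, and 1 to 4 for each interaction between successive sorted populations of blast culture.

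Uncalled differences near 0 changed sign. In HE1 the processed signal gave 0.0203 for Cebpa, 0.038 for Cebpe, 0.073 for Irf8 and 0.054 for Csf1r, and in HE2 0.014 for Cebpe. The mean over probes gave 0.13 for Csf1r and -0.0863 for Csf1 in HE1, and single other probes, an alternative added after seeing the data, 0.27 and 0.14 for Csf1r and -0.24 for Csf1 in HE1 and 0.035 for Csf1 in Flk1+ cells. Without single arrays the HE1 differences ran from -0.015 to 0.80 for Cebpb, -0.18 to 0.10 for Cebpe, -0.26 to 0.22 for Csf1r, -0.028 to 0.45 for Csf1 and -0.13 to 0.20 for Lyz2. In HE2 they ran from -0.30 to 0.12 for Cebpe, -0.53 to 0.92 for Mpo and -0.015 to 0.43 for Lyz2, and in progenitors from -0.27 to 0.13 for Cebpb and -0.27 to 0.01 for Lyz2. In Flk1+ cells they ran from -0.07 to 0.28 for Spi1, -0.03 to 0.32 for Cebpb, -0.035 to 0.51 for Csf1r, -0.93 to 0.23 for Mpo and -0.045 to 0.025 for Lyz2.

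The labels tie the replicate numbers to no shared culture or batch, and deviations from the group means correlated at -0.17 to 0.50 over the 28 pairs of groups, above 0.1 in 11 and below -0.1 in 3, so the numbers were not taken to pair the arrays throughout. With the replicate number as a block, 5 members were called in progenitors and 2 in HE2, as without it, and no call changed. The causes of these shifts were not tested. Dim signals limit Spi1 and Lyz2 before HE2, where several arrays were not well above background. Cebpe was also dim before the progenitor stage, at 6.19 to 6.91. For Cebpe 1 of 2 HE1 arrays in each genotype was not well above background, and for Fcgr3 1 of 2 in Sp1+/+. Fcgr3 was dim in Flk1+ cells and HE1, at 6.39 to 6.89. A genotype difference of Cebpe before progenitors, or of Fcgr3 before HE2, could therefore be hidden or narrowed.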
